A study of Homo sapiens with 4 samples.

Results

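The downstream-of-kinase (DOK) adaptor genes were examined in SeAx, a cell line established from a patient with Sézary syndrome, the leukaemic form of cutaneous T-cell lymphoma (CTCL). All probe sets annotated with the symbol of DOK1 to DOK7, or of the partners RASA1 and INPP5D, and with no other symbol were taken. They comprised 20 of the 49293 probe sets tested and stood for 8 of the 9 genes. RASA1 was not analysed here, since no probe set carried that symbol alone. SeAx cells transduced with a lentiviral vector encoding miR-124 (2 arrays, miR-124 1 and 2) were compared with SeAx cells labelled Control (2 arrays, control 1 and 2), which the study's text calls non-transduced. The methods describe puromycin selection after transduction, and none of the 4 arrays is of cells with an empty vector, so that vector, selection and miR-124 cannot be told apart. Each value is a log2 signal of 1 probe set on an Affymetrix PrimeView array, on which a difference of 1 is a doubling. Whether the 2 arrays of a condition stand for separately grown cells is not given in the sources used here, so p-values measure only the spread between arrays, which may be technical.

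DOK proteins carry a lipid-binding PH domain and a phosphotyrosine-binding PTB domain, followed by a tail that tyrosine kinases phosphorylate. The phosphorylated tail of DOK1 and DOK2 recruits RASA1, a GTPase-activating protein that returns RAS to its inactive form, while DOK1 and DOK3 also bind SHIP1, the inositol lipid 5-phosphatase encoded by INPP5D. In T cells, DOK1 and DOK2 are known as brakes on signalling from the antigen receptor to ERK. DOK4, DOK5 and DOK6 are known chiefly from signalling by the receptor kinase RET and from neurons, and DOK7 activates the kinase MuSK at the neuromuscular junction.

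Array medians were 7.27 to 7.31. Their 23 background probe sets, which rise with GC content, averaged 5.18 to 5.23 per array and reached 9.54 to 9.64. Of the member probe sets, 15 lay above the background mean on all 4 arrays, but only 2, the brightest of DOK1 and of INPP5D, lay above the highest background probe set on all 4. The T-cell genes CD3D, CD3G and CD2 were bright in every array (10.58 to 12.07). In contrast, LCK, CD4, CD5, CD28 and TRAT1 lay between 4.05 and 6.61, within the range of the background. None of the 10 T-cell markers, the 6 Sézary cell markers and the 13 measured markers of B, myeloid, epithelial and kidney cells passed the threshold used below. The T-cell markers had 5 positive and 5 negative log2 differences (miR-124 minus control), from -0.64 for PTPRC to 0.41 for CD3E. CD3E had 5.67 and 5.82 on miR-124 arrays, against 5.33 and 5.34 on control arrays (limma, unadjusted p = 0.0078, adjusted p = 0.89). PTPRC had 7.63 and 6.91, against 8.17 and 7.63. The differences of the Sézary cell markers ran from -0.20 to 0.09. Their levels ran from 3.70 for PLS3 to 10.44 for KIR3DL2, and 5 of the 6 were above the background mean on all 4 arrays. The mean level of the 3 B-cell markers was 7.14 and 7.39 in miR-124 arrays and 7.36 and 7.46 in control arrays, that of the 5 myeloid markers was 7.03 and 6.94 against 6.93 and 6.99, and that of the 5 epithelial and kidney markers ran from 6.97 to 7.12 over the 4 arrays. None of these markers was at 0, since the arrays give every probe set a positive value. Of these markers, 2 of the 3 B-cell, 4 of the 5 myeloid and 4 of the 5 epithelial and kidney markers were above the background mean on all 4 arrays. The myeloid receptor gene CSF1R had 10.47 and 9.81 on miR-124 arrays and 10.17 and 9.98 on control arrays, above the highest background probe set, and the epithelial cadherin CDH1 had 10.18 and 9.53 against 10.05 and 9.35. The myeloid marker LYZ and the epithelial marker EPCAM were under the background mean on each array. The part of such cells in the differences below was not tested.

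DOK1 was the member with the largest difference, and all 5 of its probe sets gave higher values on both miR-124 arrays than on both control arrays. This direction, taken from the sample labels, is opposite to the one the study's text gives for DOK1, and the source of the difference was not tested. The brightest, 11763329_a_at, had log2 signals of 11.58 and 11.83 in miR-124-transduced cells, against 11.06 and 11.33 in control cells. The 2 conditions did not overlap, although the lower miR-124 array exceeded the higher control array by less than the 2 control arrays differed from each other. Its means were 11.70 ± 0.18 in miR-124-transduced cells and 11.19 ± 0.19 in control cells (SD, n = 2 each), a log2 difference of 0.51 with a standard error of 0.15, or 1.43-fold (limma, unadjusted p = 0.021, adjusted p = 0.88). This fold is under the 1.5-fold of the study's threshold, which also asks for an unadjusted p under 0.05.

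A single member probe set passed that threshold. The DOK1 probe set 11731531_x_at had signals of 7.89 and 8.33 in miR-124-transduced cells, against 7.39 and 7.60 in control cells, so that it rose 1.53-fold (log2 difference 0.62, standard error 0.18, limma, unadjusted p = 0.023, adjusted p = 0.88). The ending x marks a probe set that the manufacturer expects to bind other transcripts as well. The probe set 11731530_a_at is annotated with the same target record as 11731531_x_at, and its signals were 7.16 and 7.67 in miR-124-transduced cells, against 6.83 and 6.99 in control cells, a log2 difference of 0.51 (unadjusted p = 0.052). For 11751046_a_at the signals were 7.52 and 7.87 in miR-124-transduced cells, against 7.23 and 7.35 in control cells, a log2 difference of 0.40 (unadjusted p = 0.046). The smallest difference was that of 11747949_a_at, with 8.19 and 8.58 in miR-124-transduced cells, against 8.01 and 8.10 in control cells, a log2 difference of 0.33 (unadjusted p = 0.095). The plot of DOK1 signals shows that array 2 was above array 1 within both conditions for every DOK1 probe set.

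**Figure D1:**
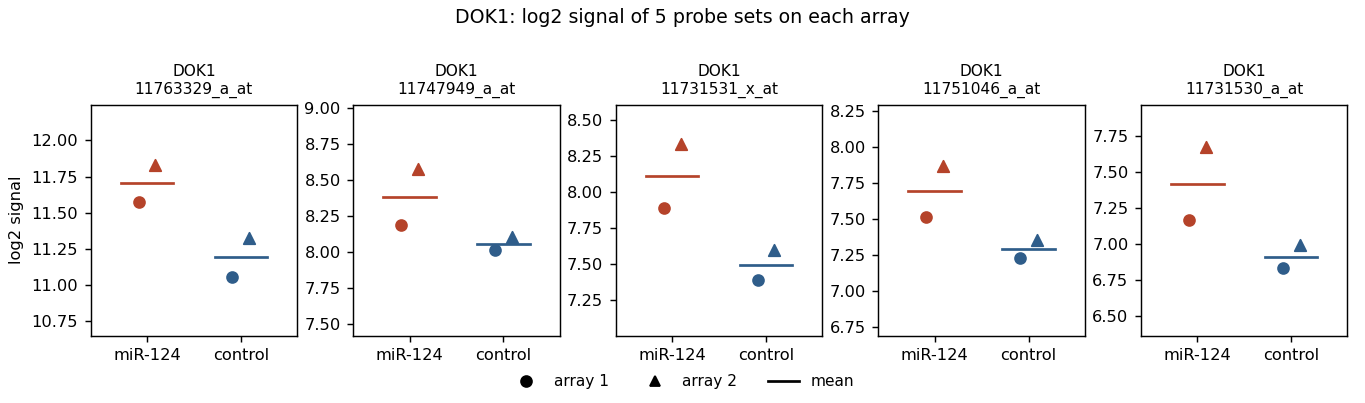
Log2 signal of the 5 DOK1 probe sets (1 panel each, from the brightest to the dimmest; every y axis spans the same range of log2 signal, placed around that probe set's mean) on the miR-124 arrays (left in each panel, red) and the control arrays (right, blue). Circles are arrays 1, triangles arrays 2 and lines the means of 2 arrays; both miR-124 arrays lie above both control arrays in all 5 panels.

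These counts were read against the whole array. Over all probe sets, 0.185% passed the threshold in either direction, 2.68% were higher at an unadjusted p under 0.05, and 18.8% had both miR-124 arrays above both control arrays. Among the 20 member probe sets, 1 passed the threshold, 3 were higher at an unadjusted p under 0.05, and 8 had both miR-124 arrays above both controls. The probe sets past the threshold or at an unadjusted p under 0.05 were all of DOK1, as were 5 of the 8. The rest of the 8 were of INPP5D and of DOK6, whose probe sets lay under the background mean. Probe sets of 1 gene are meant to measure RNA of the same gene, so they cannot be counted as independent. Of the 1005 genes that, like DOK1, had 5 probe sets, 28 (2.79%) had all 5 above the controls on both miR-124 arrays. The lowest adjusted p of any probe set was 0.88 (limma), whereas the unadjusted p was under 0.05 for 2331. The study's text names DOK1, as lower with miR-124, so its place among the members is not independent of these arrays. In RNA from a whole culture, a different share of cells with the transcript and a different amount per cell cannot be told apart.

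**Figure D2:**
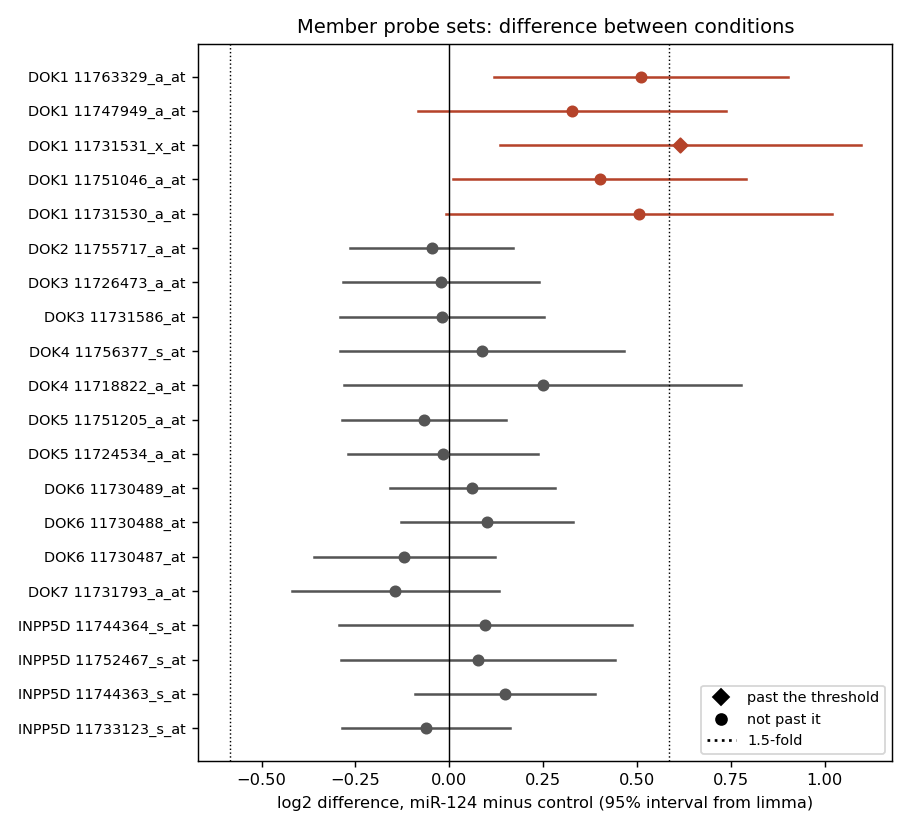
Log2 difference of each of the 20 member probe sets (rows, labelled by gene and probe set), miR-124 minus control on the x axis; points are estimates, bars 95% intervals from limma, dotted lines a fold change of 1.5 in either direction, and the diamond marks the probe set past the threshold. The DOK1 rows (red) lie between 0.33 and 0.62, and the other rows (grey) between -0.14 and 0.25.

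The DOK1 difference depended in size on single arrays. Its sign could not, since both miR-124 arrays lay above both controls on every DOK1 probe set. With each array left out in turn, the brightest probe set gave log2 differences of 0.38 to 0.65, and the one past the threshold 0.39 to 0.84. Without miR-124 replicate 2 or without control replicate 1, no member probe set passed. Without control replicate 2 only the brightest passed, and without miR-124 replicate 1 it passed together with 11731531_x_at and 11731530_a_at. Between arrays of the same number, the brightest probe set differed by 0.52 (miR-124 1 minus control 1) and 0.50 (miR-124 2 minus control 2), and 11731531_x_at by 0.50 and 0.73. A measure of transcript ends, the log2 signal of the 3' minus the 5' control probe set, separated the conditions for ACTB but not for GAPDH. For ACTB it was 0.97 and 0.99 on the miR-124 arrays, against 1.17 and 1.13 on the control arrays. For GAPDH it was -0.40 and -0.24, against -0.45 and -0.35, so that the conditions overlapped. The part of this measure in the DOK1 difference was not tested.

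**Figure D3:**
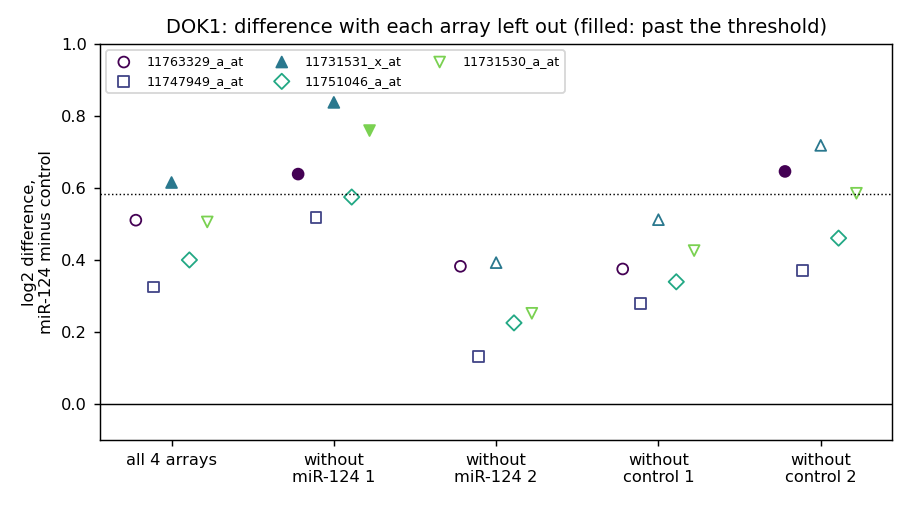
Log2 difference of the 5 DOK1 probe sets (symbols), miR-124 minus control on the y axis, with all 4 arrays and with each array left out (x axis); filled symbols passed the threshold, and the dotted line is a fold change of 1.5. All values lie above 0, as they must where both miR-124 arrays exceed both controls. They run from 0.13 (without miR-124 replicate 2) to 0.84 (without miR-124 replicate 1).

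Because every DOK1 probe set lay higher, the DNA in front of its transcripts is shown. RefSeq places 2 transcript starts in DOK1, 5615 bases apart on the forward strand of human chromosome 2 (build GRCh38.p14), and each window runs from 250 bases before a start to 50 bases after it. Window 1 is chr2:74548855-74549154, and window 2, downstream of it, is chr2:74554470-74554769. Capitals mark the GC box, GGGCGG on either strand (CCGCCC where it reads on the reverse strand), the letters that SP-family factors bind.
DOK1 window 1: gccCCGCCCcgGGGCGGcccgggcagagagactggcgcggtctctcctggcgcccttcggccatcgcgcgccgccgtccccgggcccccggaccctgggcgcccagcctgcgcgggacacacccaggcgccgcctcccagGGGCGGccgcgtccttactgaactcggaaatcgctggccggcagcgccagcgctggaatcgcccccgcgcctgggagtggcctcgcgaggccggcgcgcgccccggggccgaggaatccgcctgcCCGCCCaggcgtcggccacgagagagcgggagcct
DOK1 window 2: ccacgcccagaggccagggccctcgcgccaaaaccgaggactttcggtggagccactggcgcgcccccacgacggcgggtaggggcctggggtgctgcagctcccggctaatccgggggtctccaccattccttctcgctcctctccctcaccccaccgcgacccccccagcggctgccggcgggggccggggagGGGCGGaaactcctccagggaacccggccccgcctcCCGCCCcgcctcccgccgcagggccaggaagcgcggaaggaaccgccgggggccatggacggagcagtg
Window 1 holds 4 GC boxes and window 2 holds 2, and 45% of 35116 such windows over all genes hold at least 1. The G and C content was 79.7% in window 1 and 75.3% in window 2, against a median of 58.7% over all windows. The STAT palindrome TTCNNNGAA, the letters that dimers of the STAT factors bind, is in neither window, and 7.66% of all windows hold it. These are descriptions of letters in short windows, and which start the RNA behind a probe set came from was not tested.

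DOK2, the closest partner of DOK1 in T cells, had 1 probe set and showed almost no difference. Its signals were 6.76 and 6.73 in miR-124-transduced cells, against 6.80 and 6.80 in control cells. Both miR-124 arrays were below both controls, as they were for 5 of the 20 member probe sets and for 15.9% of all probe sets, by a log2 difference of -0.05 with a 95% interval of -0.26 to 0.17 (limma, unadjusted p = 0.60). The level of DOK2 is within the range of the background probe sets, as are those of all DOK1 probe sets but the brightest. On its brighter probe set DOK3, an adaptor known from B cells and macrophages that binds SHIP1 and GRB2, had 6.59 and 6.43 in miR-124-transduced cells, against 6.50 and 6.56 in control cells. The conditions overlapped on both DOK3 probe sets, which gave log2 differences of -0.02 each. On the brightest probe set of each gene, the log2 difference of DOK1 exceeded that of DOK2 by 0.56 and that of DOK3 by 0.53. The exact permutation p was 0.33 for each of these 2 contrasts (two-sided), the smallest that 2 arrays against 2 allow.

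DOK4, which is also described as an inhibitor of T-cell activation, had 8.85 and 9.20 on its brighter probe set in miR-124-transduced cells, against 8.89 and 8.98 in control cells. The 2 control values lay between the 2 miR-124 values. Its dimmer probe set had 7.98 and 8.46, against 7.83 and 8.11, and the log2 differences of 0.09 and 0.25 had 95% intervals of -0.29 to 0.46 and -0.28 to 0.78. DOK5 and DOK6 lay under the background mean on every array, at 3.87 to 4.57 in miR-124-transduced cells and 3.92 to 4.62 in control cells over the 2 probe sets of DOK5, and at 3.75 to 4.41 against 3.91 to 4.36 over the 3 of DOK6. For both genes a log2 difference therefore compares values at the level of the background, and it is plotted only for completeness. DOK7, the muscle member, had 5.53 and 5.70 in miR-124-transduced cells, against 5.71 and 5.81 in control cells, a log2 difference of -0.14 with a 95% interval of -0.42 to 0.13. Both miR-124 arrays were below both controls by a margin of less than the gap between the controls, and the level was close to the background mean.

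**Figure D4:**
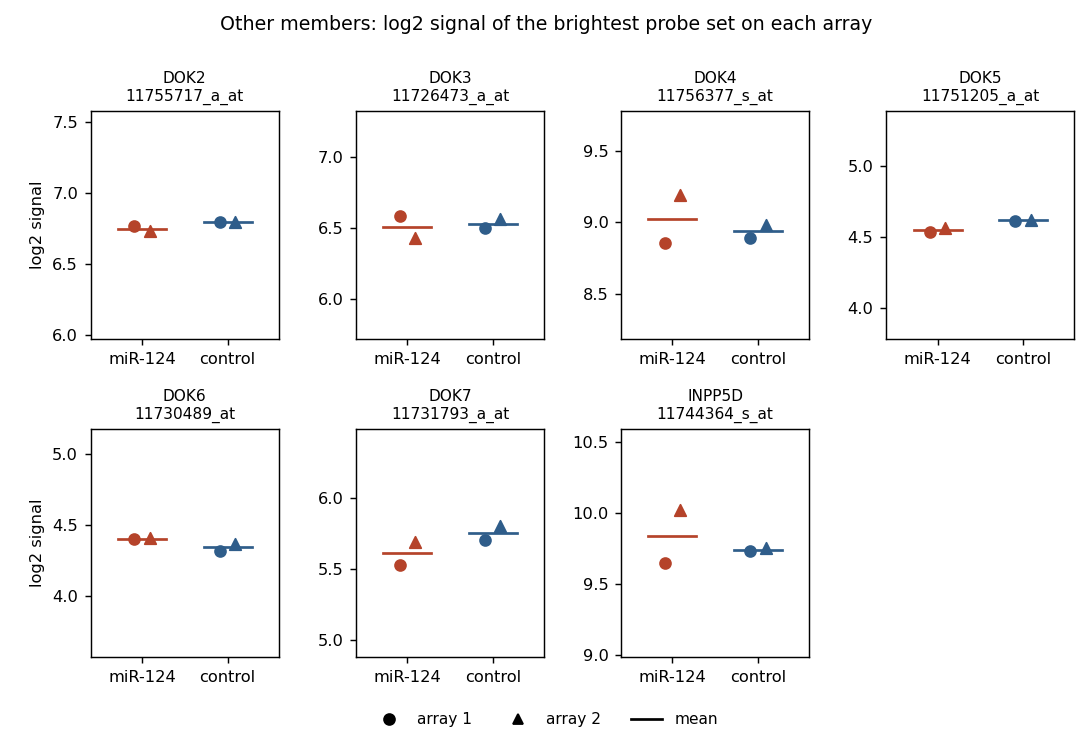
Log2 signal of the brightest probe set of the 7 other members (1 panel each; every y axis spans the same range of log2 signal, placed around the mean) on the miR-124 arrays (left, red) and the control arrays (right, blue). Circles are arrays 1, triangles arrays 2 and lines the means; for DOK4 and INPP5D the 2 control values lie between the 2 miR-124 values, and for DOK2 the 4 values run from 6.73 to 6.80.

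INPP5D, whose product SHIP1 removes the 5-phosphate from the PI3-kinase product and so limits AKT signalling, had 4 probe sets, none of which passed the threshold. Its brightest probe set had 9.65 and 10.02 in miR-124-transduced cells, against 9.73 and 9.75 in control cells, a log2 difference of 0.10 with a 95% interval of -0.29 to 0.49 (limma, unadjusted p = 0.55). The control arrays differed by 0.02 and the miR-124 arrays by 0.37. Of its 4 probe sets, 3 had positive log2 differences (0.08 to 0.15) and 1 a negative one (-0.06), with unadjusted p from 0.17 to 0.60. On 11744363_s_at both miR-124 arrays, at 8.70 and 8.81, lay above both controls, at 8.61 and 8.61. On 11733123_s_at both, at 8.05 and 7.98, lay below both controls, at 8.08 and 8.07. The ending s, which all 4 carry, marks a probe set whose probes match several transcripts, and these may include transcripts of other genes. The brighter probe set of DOK4 has the same ending. Over the 15 probe sets of members other than DOK1, 7 log2 differences were positive and 8 negative, and the lowest unadjusted p was 0.17. These counts include the probe sets of DOK5 and DOK6, which lay under the background mean.

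The genes around the DOK proteins were counted from 6 lists, on the brightest probe set of each gene. No list member passed the threshold, which 0.153% of all 18244 genes did. Of 10 genes for RAS GTPase-activating proteins other than RASA1, 8 were measured, and 4 had positive and 4 negative differences, with a median log2 difference of -0.05. The median was 0.04 for 10 measured inositol lipid phosphatases, 0.05 for 21 T-cell kinases, phosphatases and adaptors, 0.05 for 17 genes of the cascade from RAS to ERK, -0.01 for 8 other PTB adaptors and -0.01 for 14 receptors and their partners, beside 0.01 over all genes. Of the 78 list genes measured, 2 (2.56%) had an unadjusted p under 0.05, a smaller share than the 4.46% of all genes. These were CSK and ARAF, named here after their values were seen. CSK, the kinase that inhibits SRC-family kinases such as LCK, had 10.01 and 10.04 in miR-124-transduced cells, against 9.63 and 9.62 in control cells, a log2 difference of 0.40 (limma, unadjusted p = 0.0050, adjusted p = 0.89). ARAF, a RAF kinase of the ERK cascade, had 9.72 and 9.68 in miR-124-transduced cells, against 9.30 and 9.42 in control cells, a log2 difference of 0.34 (limma, unadjusted p = 0.015, adjusted p = 0.89). For both genes the miR-124 arrays were above both controls, as for 14 of the 78 list genes (17.9%) and for 18.7% of all genes.

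The genes whose pattern was most like that of the brightest DOK1 probe set were SGTA, TMEM184B and FDX2. Likeness was the Euclidean distance between log2 values centred on their own mean, over the 4 arrays and 9121 genes above the median level, and it was 0.04 for SGTA and 0.06 for TMEM184B and FDX2. SGTA, a co-chaperone, had 10.98 and 11.26 in miR-124-transduced cells, against 10.43 and 10.75 in control cells. Over 4 arrays a small distance is easily met, and 14 genes lay within 0.1.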

How the data were processed

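Total RNA of 4 SeAx samples, 2 labelled with miR-124 and 2 as Control, was hybridised by the authors to Affymetrix PrimeView arrays. The authors deposited log2 values made with RMA, that is background-corrected, quantile-normalized and summarized per probe set. RMA and limma are named in the submitters' processing notes, and their versions are not given in the sources used here. The values were used as deposited. One methods paragraph names Agilent arrays, but the labels and the probe set names are Affymetrix. Quantile normalization hides a change of total RNA. No detection calls were used.

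Of 49495 probe sets, 202 array controls were left out. Of the 49293 tested, 45278 had 1 gene symbol, 1333 several and 2682 none, and the 8 measured members matched current RefSeq gene records. Conditions were compared with limma 3.58.1 in R 4.3.3 (lmFit, eBayes, condition as the only term, 2 residual and 2.56 prior degrees of freedom), with p-values adjusted by Benjamini-Hochberg over all probe sets. At the gene level each of 18244 genes was represented by its brightest probe set. A feature passed with an unadjusted p under 0.05 if it also differed by more than 1.5-fold. The fit was also run on simulated data with log2 changes of size 2. These are larger than any DOK1 difference, so that run does not show how well differences of the DOK1 size are found. All members were named; members of the 6 other lists were to be named if past the threshold, and the 3 genes nearest to the member probe set of lowest unadjusted p were named. Members and lists were chosen with earlier results of these data known. Promoter sequences came from RefSeq (GRCh38.p14), which gave windows for 7 of the 9 genes.

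The alternatives were a replicate block, each array left out, a filter at the median level, cyclic loess, weighting of arrays, a robust eBayes prior that follows level, and genes as the mean of their probe sets.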

Additional observations from a re-analysis of the deposited data

How the results depend on the processing

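All 44 alternative values of the DOK1 probe sets were positive, but for most of them the sign was fixed in advance. With both miR-124 arrays above both controls, leaving out 1 array cannot change it. Of the settings that kept all arrays, only cyclic loess, which changes the values themselves, could have done so. In the 5 settings that kept all arrays, no member probe set that was fitted changed its call at the threshold or its direction. The DOK1 log2 differences were 0.29 to 0.62. The unadjusted p (limma) did cross 0.05 for some. With the replicate block it was under 0.05 for every DOK1 probe set (0.0016 to 0.028) and for 11718822_a_at of DOK4 (0.045). For 11731530_a_at of DOK1 it fell to 0.049 with cyclic loess and 0.041 with array weights. For 11751046_a_at of DOK1 it rose to 0.052 with the robust prior. For the other members too, only cyclic loess could have changed the direction, since the other settings left each log2 difference as it was. The filter at the median level left out the dimmest DOK1 probe set and all those of DOK2, DOK3, DOK5, DOK6 and DOK7. Their calls were therefore not tested under that filter. Leaving out an array leaves 1 in that condition, whose spread is then taken from the other condition. The number of member probe sets past the threshold was 0 to 3 in these fits, that of all probe sets 129 to 1078 (91 with all arrays), and that of all genes 33 to 340 (28 with all arrays). With the replicate block, 167 probe sets and 49 genes passed, and 1 member probe set as before; the deviations of same-numbered arrays correlated at 0.64 over all probe sets, but the numbers are not said to pair the samples. Without features under the median level, 45 probe sets and 17 genes passed. With genes as the mean of their probe sets, 19 genes passed, and DOK1 did not. Its log2 difference was then 0.47 (limma, unadjusted p = 0.036), against 0.51 (limma, unadjusted p = 0.020) in the gene-level fit on the brightest probe set. Directions of values near 0 changed with 1 array left out: the log2 differences ran from -0.099 to 0.056 and from -0.107 to 0.069 for the DOK3 probe sets 11726473_a_at and 11731586_at, from -0.083 to 0.258 for 11756377_s_at of DOK4, from -0.083 to 0.050 for 11724534_a_at of DOK5, and from -0.090 to 0.281 and -0.046 to 0.200 for 11744364_s_at and 11752467_s_at of INPP5D. The 2 arrays per condition limit the precision of every value, and levels within the range of the background probe sets may be background in part.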
